A study of Mus musculus with 26 samples.

Results

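The comparison of leukaemic stem cell fractions from mice with an endothelial deletion of Spred1 with those from Spred1 wild-type mice rested on 10 of the 26 libraries of the series: 5 from the endothelial knockout, labelled EC KO and written EC_KO here, and 5 labelled as Spred1 wild type and written Spred1_wt. Members were taken by the genotype label. All groups shared the SCLtTA/BCR-ABL transgenes, a model of chronic myeloid leukaemia (CML) in which an enhancer of the Scl gene drives the tetracycline transactivator and, through it, BCR-ABL in blood stem and progenitor cells, on a C57BL/6 background. The EC_KO mice carried 2 deleted Spred1 alleles in endothelial cells (Spred1 ECΔ/Δ); the endothelial Cre driver is not given in the sources used here. RNA was taken from the LSK fraction of the bone marrow (lineage-negative, Sca-1+, c-Kit+), a sort that holds stem and multipotent progenitor cells, so the sequenced cells were blood cells and not the endothelial cells named in the genotype. The control group of the endothelial line (Spred1 ECwt/wt) was not analysed here, and Spred1_wt stands in for it. A second wild-type group, HSC_wt, served as a check and had received 7 doses of 250 µg poly(I:C) at intervals of 2 days to activate Mx1-cre. The global Spred1 knockout (global_KO, 6 libraries) was used for differences between knockouts. A further group labelled HSC-Spred1 KO (HSC_KO, 5 libraries) had received the same poly(I:C) doses as HSC_wt and entered only the shared fit and the principal components. The age of the mice and any poly(I:C) given to EC_KO or Spred1_wt mice are not given in the sources used here.

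Spred1 belongs to the Sprouty-related family of membrane-bound inhibitors of the RAS to ERK cascade, which carries signals from receptor tyrosine kinases such as KIT. It binds neurofibromin, a RAS GTPase activator, and so limits the amount of active RAS. Endothelial cells of the marrow form part of the niche in which blood stem cells live, and supply them with ligands such as KIT ligand, Notch ligands and extracellular vesicles.

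EC_KO libraries held between 18487600 and 24114800 counts and Spred1_wt libraries between 14816100 and 20197400. Labels name 5 separate mice for EC_KO; where they do not say so for Spred1_wt, p-values measure only the spread between these libraries, which may be technical. Transcripts of Xist placed 2 EC_KO libraries as female and transcripts from chromosome Y placed the other 3 as male, whereas all 5 Spred1_wt libraries were male. The first principal component of all 26 libraries carried 32% of the variance and did not separate the groups, with EC_KO from -55.6 to 25.5 and Spred1_wt from -28.4 to 32.4; both female EC_KO libraries lay above the 3 male ones. The second carried 13.3% of the variance and separated EC_KO, between 3.55 and 45.0, from Spred1_wt, between -21.2 and -6.79, without overlap. It was not particular to EC_KO. HSC_wt replicates 4 and 5 lay inside the EC_KO range, at 9.7 and 7.58. So did replicates 4 and 5 of HSC_KO, at 18.7 and 23.2. All 4 of these libraries were female and came from the 2 groups given poly(I:C). A relation of this component to sex or to poly(I:C) was not tested. All levels below are CPM, the read count relative to the library's total, scaled by the trimmed mean of M values, and all adjusted p-values come from edgeR's quasi-likelihood test over 13379 tested genes with Benjamini-Hochberg adjustment. A gene is called when its adjusted p is under 0.05. A bulk level cannot tell fewer cells of a type apart from less RNA per cell.

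Spred1 itself was lower in the LSK cells of EC_KO mice. The gene (chr2:117121071-117182277, plus strand, mm10) read 84.0, 80.9, 58.0, 63.0 and 66 CPM in the 5 EC_KO libraries and 92.4, 106, 148, 110 and 115 CPM in the 5 Spred1_wt libraries. No EC_KO library reached the lowest Spred1_wt library. The log2 difference was -0.70 (SE 0.150, adjusted p = 0.00527), or 1.62-fold lower. In HSC_wt the mean was 104 ± 4.90 CPM (SD, n = 5), and EC_KO was lower than that as well (log2 difference -0.56, adjusted p = 0.0167). EC_KO stood between wild type and the global knockout, whose mean was 32.7 ± 7.36 CPM (SD, n = 6), and it exceeded global_KO by 1.11 on the log2 scale (SE 0.144, adjusted p = 3.04e-05). The difference of Spred1 shrank to -0.32 when the mean log2 level of mast cell and basophil markers entered the fit as a covariate (adjusted p = 0.0481), and with that of the immediate early genes as a covariate it missed the threshold at -0.54 (adjusted p = 0.0607). The exons removed by the deletion are not given in the sources used here, so the whole-gene count is not a direct readout of the deleted part.

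The nearest transcript downstream of Spred1 on the same strand, the microRNA gene Mir674 (chr2:117185127-117185226, mm10), moved in the opposite direction at very low counts. EC_KO libraries held 6, 5, 4, 4 and 5 reads and Spred1_wt libraries 1, 0, 0, 0 and 2, a ratio of 6.33 with a 95% counting interval of 1.92 to 32.8. Its adjusted p was 0.0265, DESeq2 did not call it, and it missed the threshold when EC_KO replicate 3 or Spred1_wt replicates 2, 3 or 4 was left out (adjusted p up to 0.0749). The global knockout, with 0.708 ± 0.364 CPM (SD, n = 6), was higher still than EC_KO, at 0.221 ± 0.0222 CPM (SD, n = 5), by the test between knockouts (adjusted p = 0.0180). The count comes from total RNA and belongs to the locus, not to either mature arm. The mature arms, shown because this is the transcript next to the deleted gene, are given here from RefSeq (GRCm38.p6) with the seed, bases 2 to 8, in capitals. They have different seeds.
mmu-miR-674-5p: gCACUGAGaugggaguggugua
mmu-miR-674-3p: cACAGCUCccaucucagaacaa

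Across the transcriptome, 1065 genes were called, 7.96% of those tested. Of these, 467 were higher in EC_KO (3.49%) and 598 were lower (4.47%). Most differences were small: 770 of the calls were under 1.5-fold, while 34 of the higher and 118 of the lower genes differed by 2-fold or more. The 5 EC_KO libraries lay wholly above or below the 5 Spred1_wt libraries for 743 genes (5.55%), wholly above for 307 (2.29%) and wholly below for 436 (3.26%). The spread used in the test was shared by 5 groups, and a fit of EC_KO and Spred1_wt alone called 333 genes. Leaving out 1 library gave 483 calls without EC_KO replicate 3, 628 without EC_KO replicate 4, 1880 without EC_KO replicate 5 and 584 without Spred1_wt replicate 5. Adding sex to the fit left 636 calls, and male EC_KO libraries alone gave 1032. The genes nearest the threshold had adjusted p-values of 0.0495 and 0.0502.

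**Figure D1:**
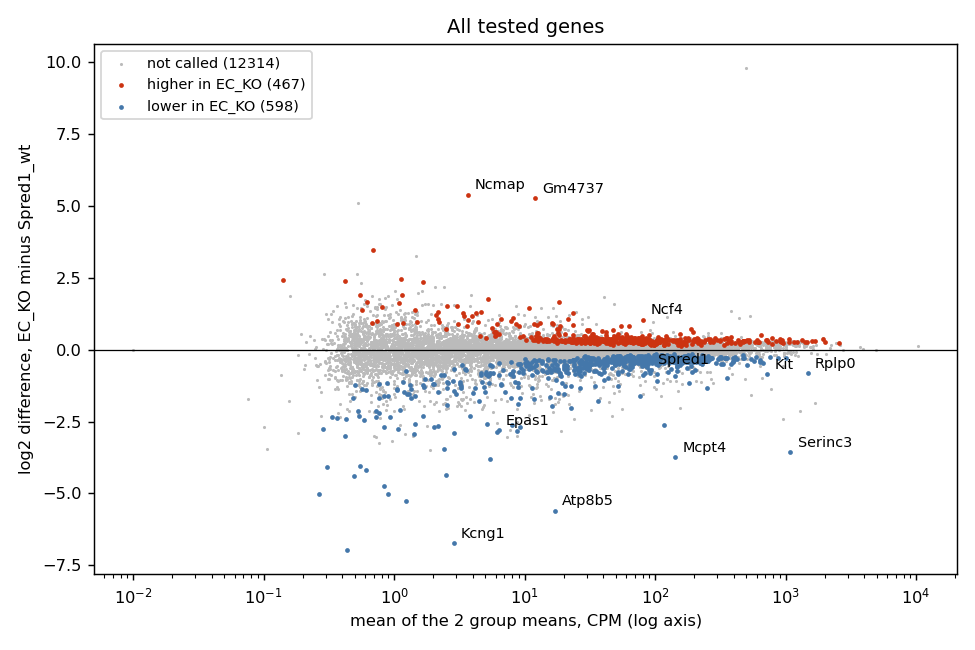
Each point is 1 of the 13379 tested genes, with the mean of both group means in CPM on a log axis and the log2 difference, EC_KO minus Spred1_wt, on the vertical axis. The 467 genes called higher are red, the 598 called lower are blue, and most calls at high levels lie close to 0, with Serinc3 and Rplp0 standing below the others at their level.

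The sharpest differences belonged to a few genes whose levels barely varied within a group. Serinc3, a multipass membrane protein of the serine incorporator family known as a restriction factor of retroviral particles, read 171, 169, 168, 165 and 177 CPM in EC_KO and 1786, 1866, 2349, 1991 and 2042 CPM in Spred1_wt. It fell 11.8-fold (log2 difference -3.56, SE 0.0850, adjusted p = 1.93e-20). HSC_wt (1987 ± 180 CPM, SD, n = 5) and global_KO (mean 1992 CPM, n = 6) were at the level of Spred1_wt, and EC_KO differed from global_KO by -3.55 (SE 0.0836, adjusted p = 1.38e-20). The 3 other tested members of the Serinc family were not called.

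Polr2k, a small zinc-binding subunit shared by the nuclear RNA polymerases, read 5.15, 5.55, 7.01, 5.52 and 4.54 CPM in EC_KO and 17.6, 17, 18.6, 21.1 and 16.1 CPM in Spred1_wt. On the log2 scale this gene fell by 1.70 (SE 0.106, adjusted p = 7.91e-11). Hmgn2, a nucleosome-binding protein that loosens chromatin, fell by 0.98 (SE 0.0668, adjusted p = 4.33e-10), from 475 ± 33.5 to 241 ± 13.3 CPM (SD, n = 5 each). Every EC_KO library stayed below every Spred1_wt library for both genes. Rplp0, the stalk protein P0 of the large ribosomal subunit and a common reference gene in PCR assays, read 1150.2, 1084, 1112, 1081 and 937 CPM in EC_KO against 1763, 1809, 2156, 1992 and 1658 CPM. Its log2 difference was -0.81 (SE 0.0934, adjusted p = 7.38e-06), opposite to most other ribosomal protein genes described below.

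Rises of this kind were seen for Ncf4, Rida and Ncmap. Ncf4 encodes p40phox, a cytosolic subunit of the phagocyte NADPH oxidase, and read 116, 108, 117, 108 and 94.8 CPM in EC_KO against 52.8, 47.8, 52.4, 61.8 and 49.8 CPM in Spred1_wt. It rose by 1.04 on the log2 scale (SE 0.0846, adjusted p = 1.55e-08), with no overlap between groups. Rida, a deaminase that clears reactive enamine and imine intermediates, rose by 1.28 (SE 0.105, adjusted p = 1.58e-08), from 13.7 ± 1.76 to 33.2 ± 3.85 CPM (SD, n = 5 each). Ncmap, a membrane protein described in peripheral myelin, was almost without reads in wild-type cells, with 3, 2, 7, 2 and 0 reads in the Spred1_wt libraries against 191, 121, 180, 108 and 179 in EC_KO (44.0-fold by summed counts, 95% counting interval 26.1 to 80.9, adjusted p = 2.17e-07).

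**Figure D2:**
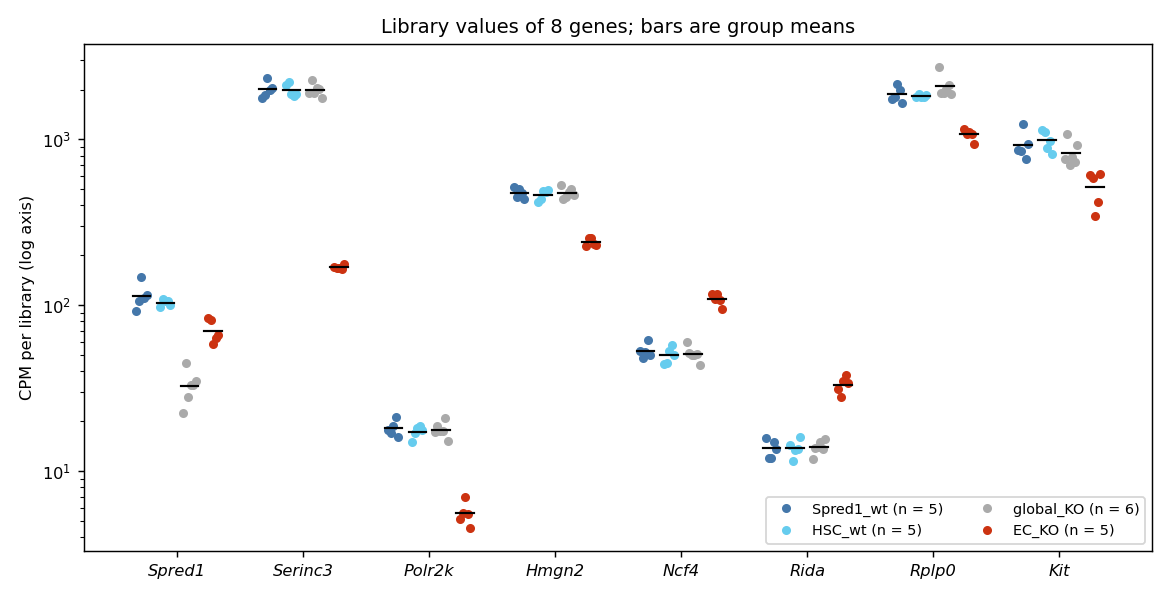
Library values of 8 genes in CPM on a log axis, with 1 point per library, a bar at each group mean, and groups Spred1_wt (n = 5), HSC_wt (n = 5), global_KO (n = 6) and EC_KO (n = 5). For Serinc3, Polr2k, Hmgn2, Ncf4, Rida and Rplp0 the EC_KO points stand apart from all 3 other groups, whereas for Spred1 they lie between the wild types and global_KO.

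Serinc3 lies on chromosome 2 in a stretch where neighbouring genes were also lower. Its promoter side overlaps 0610039K10Rik (chr2:163644850-163645800, plus strand), transcribed in the other direction, which held 3, 1, 3, 3 and 1 reads in EC_KO and 10, 11, 7, 6 and 12 reads in Spred1_wt (adjusted p = 0.000641). Use of strand in the counting is not given in the sources used here, so reads in the shared stretch cannot be assigned to one gene or the other. Pkig, an inhibitor of protein kinase A that starts beyond it, read 14.8, 14, 13.2, 13.4 and 12.2 CPM against 21.4, 21.7, 31.2, 23 and 22.3 CPM and fell by 0.82 (SE 0.116, adjusted p = 9.48e-05). Kcng1, a modifier subunit of voltage-gated potassium channels further along the chromosome, had 0, 2, 3, 0 and 0 reads in EC_KO and 174, 198, 71, 24 and 34 reads in Spred1_wt, or 127-fold fewer by summed counts (95% counting interval 53.9 to 392, adjusted p = 0.000145). The sequence around the Serinc3 start (chr2:163645094-163645393, minus strand, RefSeq, GRCm38.p6) is printed because all of it lies inside the span of 0610039K10Rik. Capitals mark the first 50 transcribed bases of Serinc3.
Serinc3: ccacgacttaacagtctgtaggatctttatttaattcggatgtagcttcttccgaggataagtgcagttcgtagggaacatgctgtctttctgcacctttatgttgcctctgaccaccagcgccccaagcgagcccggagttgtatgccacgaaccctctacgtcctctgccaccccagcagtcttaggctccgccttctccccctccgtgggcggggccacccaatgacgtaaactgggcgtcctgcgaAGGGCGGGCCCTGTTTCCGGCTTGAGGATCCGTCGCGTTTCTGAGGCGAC

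Genes called in this comparison were unevenly spread over the chromosomes. On chromosome 15, 67 of 516 tested genes were called (13%), and on chromosome 4 105 of 843 (12.5%), against 7.96% of all tested genes and 4.36% on chromosome 19. In windows of 10 Mb with at least 20 tested genes, the median share was 7.14%. The highest share, 34.2%, came from the window of chromosome 15 from 30 to 40 Mb, where 13 of 38 tested genes were called. It holds Polr2k, Rida, Fzd6 and Snx31, which encodes a sorting nexin and had 0, 0, 0, 3 and 2 reads in EC_KO against 37, 53, 35, 10 and 18 in Spred1_wt (adjusted p = 3.18e-06). Fzd6, a Wnt receptor of the Frizzled family, fell by 1.97 (SE 0.218, adjusted p = 3.98e-06), from 26 ± 7.40 to 6.61 ± 2.07 CPM (SD, n = 5 each).

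Other windows with many calls held further leading genes. On chromosome 4 from 130 to 140 Mb, 30 of 138 tested genes were called (21.7%), among them Hmgn2 and Ncmap. On chromosome 4 from 40 to 50 Mb the share was 21% (22 of 105). It holds Atp8b5, a phospholipid flippase, and Il11ra1, the ligand-binding chain of the interleukin 11 receptor. The window of chromosome 2 from 110 to 120 Mb, which contains Spred1, had 15 of 59 genes called (25.4%), and that from 160 to 170 Mb, which contains Serinc3, had 17 of 79 (21.5%). Kit lies in a window of chromosome 5 from 70 to 80 Mb with 12 of 40 called (30.0%), of which 9 were higher and 3 lower. Not every leading gene lay in such a window. Ncf4 lies on chromosome 15 from 70 to 80 Mb, where 12 of 131 tested genes were called (9.16%), near the window median of 7.14%. Grouping calls within 5 Mb of each other gave 103 groups of 3 or more that held 93.8% of all calls, so this grouping did not single out regions.

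**Figure D3:**
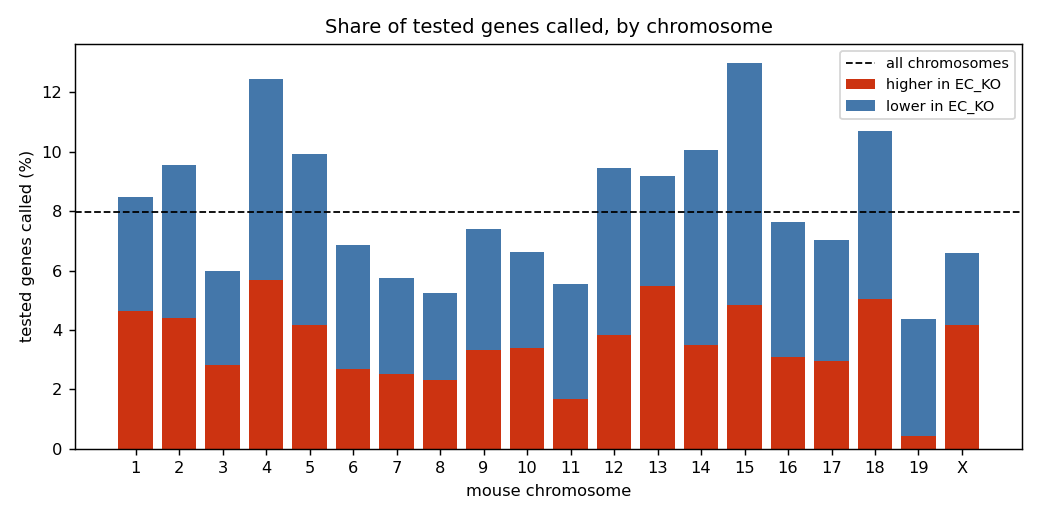
Bars give the percentage of tested genes called on each mouse chromosome, from 0, split into genes higher (red) and lower (blue) in EC_KO, with a dashed line at the 7.96% of all tested genes. Chromosomes 15 and 4 reach 13% and 12.5%, and chromosome 19 is lowest among those drawn at 4.36%.

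A second kind of leading gene varied strongly inside the EC_KO group. Gm4737, a predicted gene, read 53.4, 29.6 and 31.3 CPM in EC_KO replicates 1, 2 and 3 but 1.02 and 0.55 CPM in replicates 4 and 5, against 0.43 to 0.94 CPM in Spred1_wt. Its call (log2 difference 5.27, SE 0.803, adjusted p = 0.000281) rested on those 3 libraries and was lost in the fit of both groups alone. Apobec3, a cytidine deaminase that restricts retroviruses, read 90.2, 225, 211, 92.8 and 89.9 CPM against 320.0 to 388 CPM. It fell by 1.32 (SE 0.19, adjusted p = 0.000145) with no overlap, and EC_KO replicates 2 and 3 stood well above the other 3. D730005E14Rik, which overlaps its start on the other strand, was also highest in EC_KO replicates 2 and 3, at 0.711, 3.44, 4.28, 0.858 and 0.840 CPM against 5.84 to 8.07 CPM, and reads in the shared stretch cannot be assigned to either. Il11ra1 read 5.86, 6.87, 21, 7.67 and 9.66 CPM against 26 to 32.6 CPM and fell by 1.54 (SE 0.215, adjusted p = 9.01e-05), with EC_KO replicate 3 the closest to wild type. Srd5a1, a steroid 5-alpha-reductase, read 16.2, 25.2, 15.2, 7.29 and 15.2 CPM against 4.68 to 6.73 CPM and rose by 1.45 (SE 0.214, adjusted p = 0.000145). Atp8b5 differed from these genes in that it was low in every EC_KO library, at 0.46 to 1.07 CPM. Its spread lay in Spred1_wt, at 16.5 to 61.1 CPM, and it fell by 5.60 (SE 0.647, adjusted p = 1.25e-05).

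The choice of wild-type control mattered for some genes. Kcnip3, a calcium-binding potassium channel partner, fell by 3.81 against Spred1_wt (SE 0.431, adjusted p = 5.02e-06), yet its mean was 0.714 CPM in EC_KO, 0.802 CPM in HSC_wt and 1.08 CPM in global_KO, and the difference from HSC_wt was -0.16 (adjusted p = 0.851). Meis2, a homeobox partner of HOX proteins, had 2, 4, 0, 0 and 0 reads in EC_KO and 1, 21, 71, 54 and 54 reads in Spred1_wt (adjusted p = 0.000354), and was not called against HSC_wt (adjusted p = 0.0968). Hmga2, an architectural chromatin protein of fetal-type stem cells, rose by 1.11 against Spred1_wt (SE 0.273, adjusted p = 0.0130) but differed by -0.15 from HSC_wt (adjusted p = 0.756). Epas1, the hypoxia-inducible factor HIF-2α, fell against both (log2 difference -2.81, SE 0.473, adjusted p = 0.000686, and -1.49, adjusted p = 0.0382). Its Spred1_wt values were 3.08, 3.94, 4.63, 23.8 and 19.9 CPM, so replicates 4 and 5 carried most of the larger difference. Of all 1065 calls, 722 (67.8%) were also made in the same direction against HSC_wt, and none in the opposite one. They were 47.9% of the 1507 calls against HSC_wt (11.3% of genes tested, 5.24% higher and 6.02% lower). Both comparisons use the same EC_KO libraries. At 2-fold or more against both controls, 15 genes were higher and 57 lower.

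Of 19 tested components of the RAS to ERK cascade, 1 was called higher and 2 lower, against 3.49% and 4.47% of all tested genes, with a median log2 difference of -0.00428 against 0.0206 for all tested genes. Nras, a RAS GTPase, read 177 to 196 CPM in EC_KO and 152 to 169 CPM in Spred1_wt, and rose by 0.18 (SE 0.0495, adjusted p = 0.0233). Ksr1, a scaffold that brings RAF, MEK and ERK together, fell by 0.41 (SE 0.104, adjusted p = 0.0156). Sos1, an exchange factor that loads RAS with GTP, fell by 0.28 (SE 0.0772, adjusted p = 0.0253) and was not called after correction for gene length (adjusted p = 0.293). Each of these calls was lost in leave-one-out fits, with adjusted p up to 0.114 for Nras without Spred1_wt replicate 5, 0.0678 for Sos1 without EC_KO replicate 4 and 0.0572 for Ksr1 without EC_KO replicate 3. Hras, Braf and Mapk3 were not called.

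Among 12 tested Spred, Sprouty and RAS GTPase activating genes, 2 were lower and none higher, with a median of -0.0583. Spred1 was among them. Spred2 and Spred3, the other Spred genes, differed by -0.03 and -0.00 and were not called. The genes commonly read as ERK output gave 1 higher and 2 lower of 17 tested, against 3.49% and 4.47% of all genes, with a median of -0.205. One of the lower genes is Spred1, the deleted gene itself. Dusp5, a nuclear ERK phosphatase, fell by 0.78 (SE 0.218, adjusted p = 0.0278) but was level with HSC_wt (log2 difference -0.06, adjusted p = 0.889), and its call was lost in 5 of 10 leave-one-out fits. Etv4, an ETS factor induced by ERK, read 5.90, 5.13, 1.56, 0.70 and 0.46 CPM in EC_KO against 0.13 to 0.91 CPM in Spred1_wt, so that EC_KO replicates 1 and 2, the female libraries, carried its call (log2 difference 2.37, SE 0.722, adjusted p = 0.0437), which was lost in 6 of 10 leave-one-out fits, with sex in the fit and against HSC_wt. Ccnd1, cyclin D1, read 86.0, 78.5, 56.4, 49.2 and 48.9 CPM against 30.1 to 54.7 CPM and missed the threshold in edgeR (log2 difference 0.54, SE 0.176, adjusted p = 0.0554), although DESeq2 called it. Spry4 differed by 0.72 (SE 0.299, adjusted p = 0.130), and Dusp6 and Etv5 were not called.

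Of 21 tested immediate early genes, which cells switch on quickly after a stimulus, 4 were called lower and none higher, against 4.47% of all genes called lower. All 21 had negative log2 differences, with a median of -0.772, but 17 did not pass the test. Their summed level was 4964, 2795, 2012, 3492 and 6083 CPM in EC_KO and 6967, 5439, 3154, 7853 and 9868 CPM in Spred1_wt, so the groups overlapped. Against HSC_wt the median was -0.609, again with 4 called lower, where 6.02% of all tested genes were. Egr3, a zinc-finger factor of the early growth response family, read 2.59, 3.29, 0.78, 1.88 and 2.69 CPM against 4.49, 6.60, 17.1, 21.8 and 19.1 CPM and fell by 2.61 (SE 0.567, adjusted p = 0.00639). Atf3, a stress-induced bZIP factor, read 2.55, 1.04, 0.88, 0.59 and 2.10 CPM against 8.46, 3.94, 1.76, 20.3 and 19.3 CPM and fell by 2.88 (SE 0.755, adjusted p = 0.0209). The Atf3 groups overlapped, and its call was lost in 3 of 10 leave-one-out fits (adjusted p up to 0.0683, without EC_KO replicate 3). Egr2 fell by 1.49 (SE 0.402, adjusted p = 0.0229), with the call lost in 3 leave-one-out fits and against HSC_wt (adjusted p = 0.678). Fosl2, a FOS-family partner of JUN, fell by 0.47 (SE 0.136, adjusted p = 0.0357), with the call lost in 7. Fos itself read 610, 331, 242, 408 and 619 CPM against 500.5 to 1363 CPM and was not called (log2 difference -0.97, SE 0.358, adjusted p = 0.0899), although DESeq2 called it.

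Of 17 tested regulators and targets of NF-κB, an inflammatory transcription factor, 2 were called lower and none higher, against 4.47% of all genes called lower. All 17 were negative, with a median of -0.40, but 15 did not pass. Against HSC_wt the median was -0.125, with 1 called lower, a share near the 6.02% of all tested genes. Their sums of 680 to 983 CPM in EC_KO lay below the 1029 to 1329 CPM of Spred1_wt without overlap, whereas HSC_wt, at 880 to 1188 CPM, overlapped EC_KO. Rel, the c-Rel subunit, read 17.4, 20.4, 20.6, 20.9 and 18.7 CPM against 28.6, 31.6, 27.7, 35.5 and 33.9 CPM. It fell by 0.68 (SE 0.114, adjusted p = 0.000588) and was also lower than HSC_wt (log2 difference -0.54, adjusted p = 0.00344) and global_KO (-0.71, SE 0.110, adjusted p = 0.000211). Nfkb2, which encodes the p100 precursor of p52, fell by 0.49 (SE 0.114, adjusted p = 0.00924) but was not called against HSC_wt (log2 difference -0.26, adjusted p = 0.139). Tnfaip3, the feedback inhibitor A20, differed by -1.55 (SE 0.505, adjusted p = 0.0592) and was not called by edgeR but was by DESeq2.

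Promoter windows of 3 called genes of both lists are printed to show the motif letters counted here. Where a gene had several annotated starts, a motif in any of its windows counted, and the first window with the motif is printed. The Atf3 window lies inside the span of its gene (chr1:191170297-191218039), not at its upstream end. RefSeq (GRCm38.p6) windows from 250 bases before to 50 bases after a start were found for 13 of the 17 NF-κB genes and 18 of the 21 immediate early genes. The kappa-B consensus, searched on both strands, was present in 7 of the 13 (53.8%), against 6.18% of tested genes with a window. The letters TGACG, the core of the cyclic AMP response element, were present on either strand in 11 of the 18 immediate early genes (61.1%), against 35.0% of tested genes with a window. With list and motif exchanged, the kappa-B consensus was present in 5 of the 18 immediate early genes (27.8%) and TGACG in 3 of the 13 NF-κB genes (23.1%). The lists include textbook targets of these factors. A match describes letters only. Capitals mark the kappa-B consensus in Rel (chr11:23770920-23771219, minus strand) and Nfkb2 (chr19:46304487-46304786, plus strand), where overlapping matches run together, and TGACG on the opposite strand in Atf3 (chr1:191183284-191183583, minus strand).
Rel: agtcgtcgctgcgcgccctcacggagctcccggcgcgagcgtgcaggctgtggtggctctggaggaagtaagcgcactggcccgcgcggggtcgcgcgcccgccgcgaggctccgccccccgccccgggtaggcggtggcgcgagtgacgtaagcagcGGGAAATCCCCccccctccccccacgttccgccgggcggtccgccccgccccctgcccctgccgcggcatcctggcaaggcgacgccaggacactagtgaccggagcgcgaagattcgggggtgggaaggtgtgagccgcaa
Nfkb2: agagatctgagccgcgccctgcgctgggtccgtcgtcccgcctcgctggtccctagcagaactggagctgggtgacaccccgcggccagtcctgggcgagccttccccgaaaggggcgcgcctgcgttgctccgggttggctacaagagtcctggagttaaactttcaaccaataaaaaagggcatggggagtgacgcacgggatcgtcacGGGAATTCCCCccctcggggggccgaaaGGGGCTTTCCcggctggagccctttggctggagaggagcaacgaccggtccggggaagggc
Atf3: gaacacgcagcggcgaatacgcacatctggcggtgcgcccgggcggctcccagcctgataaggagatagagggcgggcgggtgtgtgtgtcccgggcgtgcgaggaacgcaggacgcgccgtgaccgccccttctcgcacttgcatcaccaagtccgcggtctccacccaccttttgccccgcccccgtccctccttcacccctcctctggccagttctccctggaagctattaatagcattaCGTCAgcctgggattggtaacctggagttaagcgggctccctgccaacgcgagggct

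**Figure D4:**
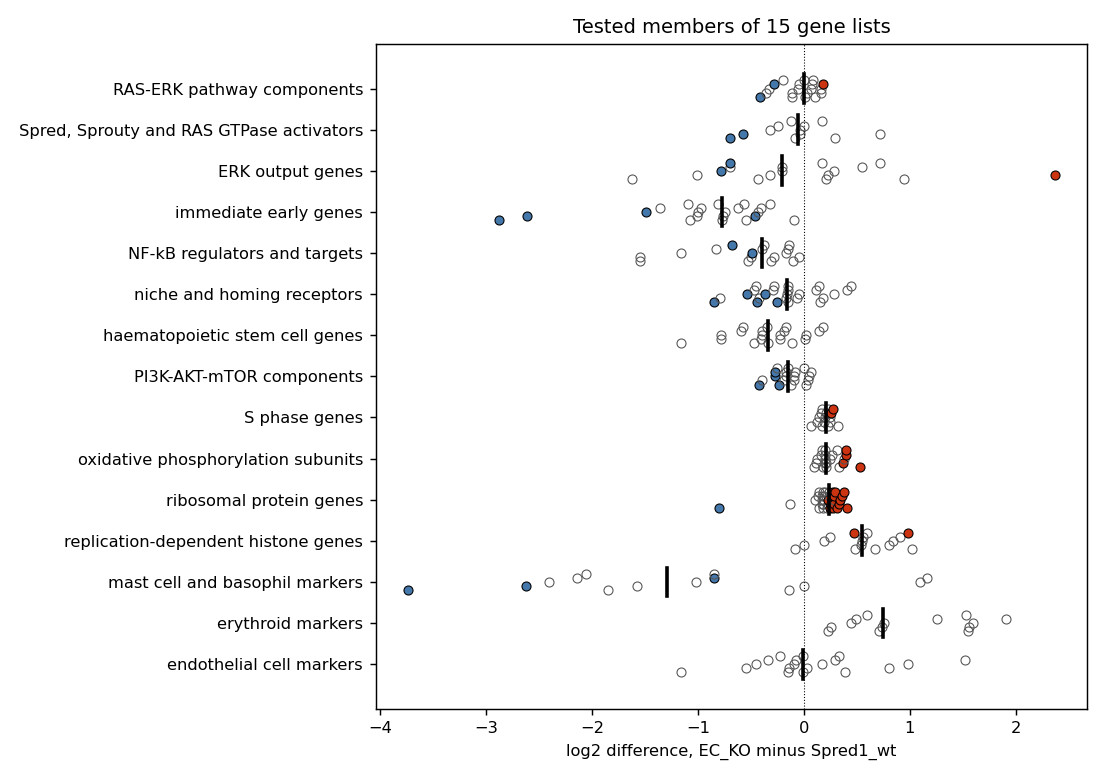
Each point is a tested member of 1 of 15 gene lists, placed by its log2 difference, EC_KO minus Spred1_wt; filled points were called higher (red) or lower (blue) and black bars are list medians. Every immediate early and NF-κB gene lies below 0, every S phase, oxidative phosphorylation and erythroid gene lies above it, and mast cell and basophil genes spread from -3.74 to 1.16.

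Kit, the stem cell factor receptor by which the cells were sorted, was lower in every EC_KO library. It read 607, 587, 344, 419 and 622 CPM against 868, 851, 1236, 760.1 and 935 CPM and fell by 0.85 (SE 0.177, adjusted p = 0.00447), with -0.93 against HSC_wt (adjusted p = 0.00162) and -0.68 against global_KO (SE 0.171, adjusted p = 0.0138). The other sort and stem cell surface genes Ly6a (Sca-1), Ptprc, Cd34 and Flt3 were not called. Of 25 tested receptors for niche signals, 5 were called lower and none higher, against 4.47% and 3.49% of all genes, with a median of -0.159. They were Kit, Bmpr2, Tgfbr2, Notch2 and Itga5. Bmpr2, the type II receptor for bone morphogenetic proteins, fell by 0.45 (SE 0.101, adjusted p = 0.00732), and Tgfbr2, the receptor that binds TGF-β, by 0.54 (SE 0.122, adjusted p = 0.00794). Notch2 fell by 0.36 (SE 0.0967, adjusted p = 0.0207) and Itga5, the fibronectin receptor chain, by 0.25 (SE 0.0778, adjusted p = 0.0447). Calls of Notch2 and Itga5 were lost in 4 and 5 of 10 leave-one-out fits. After correction for gene length Bmpr2, Notch2 and Itga5 were no longer called (adjusted p = 0.0647, 0.219 and 0.0855), and Cd44, the hyaluronan receptor, was called higher (log2 difference 0.26, adjusted p = 0.00797). Hes1, a Notch target, read 7.24, 5.60, 2.77, 5.74 and 4.20 CPM against 8.97 to 18.7 CPM and fell by 1.30 (SE 0.388, adjusted p = 0.0394), but its difference from HSC_wt was -0.59 (adjusted p = 0.336).

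None of the 20 tested haematopoietic stem cell genes was called in either direction, although 16 were negative and the median was -0.344. Of the 20, 5 had an unadjusted p under 0.05 (3360 of all 13379 did), and DESeq2 called 1, Prdm16. The largest difference among them was Vwf, von Willebrand factor, at -1.16 (SE 0.431, adjusted p = 0.0939), and the lowest edgeR adjusted p was that of Prdm16, at -0.59 (SE 0.201, adjusted p = 0.0657). Of 14 HOX, MEIS and PBX genes 2 were called lower, against 4.47% of all tested genes. They were Meis2 and Pbx3 (log2 difference -0.44, SE 0.112, adjusted p = 0.0163), and Pbx3 was not called against HSC_wt (adjusted p = 0.0680).

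Mast cell transcripts varied strongly between libraries and moved with the comparison. The summed level of 14 mast cell and basophil markers was 7049, 7378, 3688, 4255 and 4620 CPM in EC_KO and 4635, 5590, 20408, 13172 and 13581 CPM in Spred1_wt. EC_KO replicates 3, 4 and 5, the male libraries, were lowest, and Spred1_wt replicates 1 and 2 overlapped with EC_KO. The list median was -1.30, with 3 of 14 called lower and none higher, against 4.47% of all tested genes called lower. Mcpt4, a chymase of connective tissue mast cells, read 33.7, 58.7, 3.75, 1.77 and 1.01 CPM against 189, 193, 485, 244 and 212 CPM and fell by 3.74 (SE 0.900, adjusted p = 0.0130). Gzmb, granzyme B, fell by 2.62 (SE 0.703, adjusted p = 0.0242), with overlapping groups and the call lost without EC_KO replicate 3 or 4 or Spred1_wt replicate 5 (adjusted p up to 0.0794). Kit, the third, is also a mast cell marker. Cma1 and Cpa3, defining mast cell proteases, reached 856 and 1610.2 CPM in EC_KO replicate 2 but 5.84 to 14.7 and 178 to 255 CPM in EC_KO replicates 3, 4 and 5, and were not called (adjusted p = 0.223 and 0.159). Mcpt8 and Prss34, proteases of basophils, were higher in EC_KO replicates 3, 4 and 5 (726 to 955 and 566 to 1470.4 CPM) than in any Spred1_wt library (up to 333 and 545 CPM), with log2 differences of 1.10 and 1.16 that were not called (adjusted p = 0.169 and 0.242). With the mean log2 level of these markers as a covariate, 2653 genes were called, 765 of them among the 1065.

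**Figure D5:**
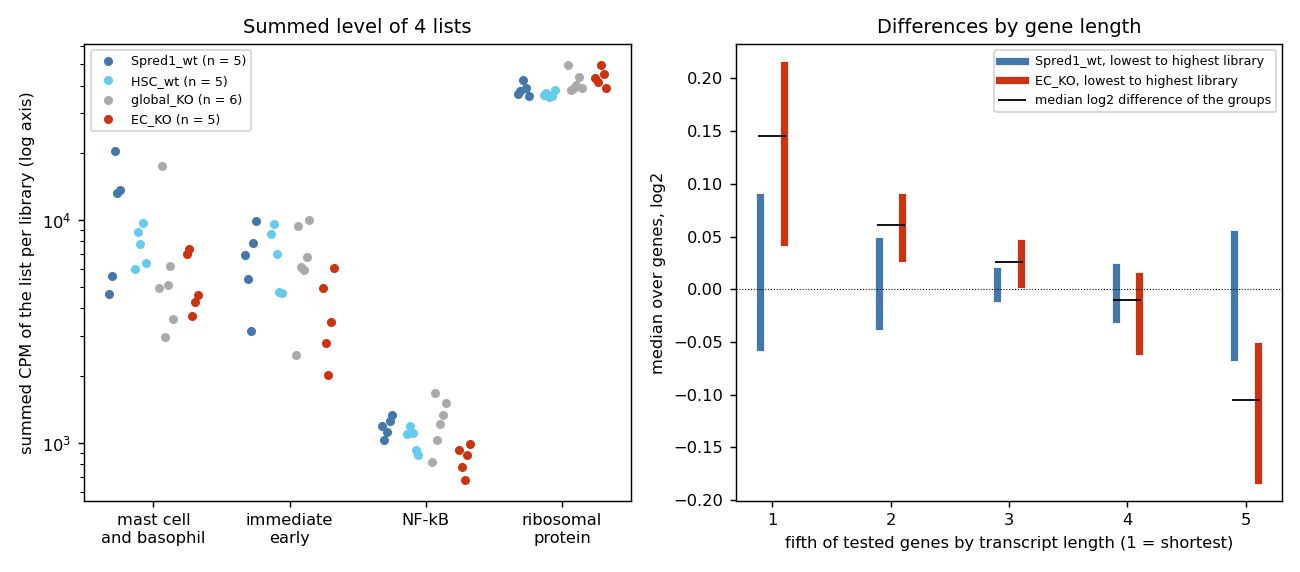
Left, the summed CPM of 4 lists on a log axis with 1 point per library; mast cell and basophil sums of EC_KO lie between 3688 and 7378 CPM and those of Spred1_wt reach 20408 CPM. Right, tested genes in 5 equal bins of transcript length, with bars from the lowest to the highest library's median log2 level relative to the Spred1_wt mean, and black marks at the median log2 difference of the groups, falling from 0.145 in the bin of shortest transcripts to -0.105 in the longest.

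Markers of most other cell types gave no called genes against Spred1_wt. All 14 tested erythroid genes were positive (median 0.746), with sums of 515 to 868 CPM in EC_KO and 374 to 553 CPM in Spred1_wt, and none was called. None of 15 macrophage and monocyte genes (median 0.687; sums 267 to 575 and 299 to 534 CPM), 12 neutrophil genes (median 0.616; sums 228 to 970.0 and 57.1 to 900.2 CPM), 8 plasma cell genes (median -0.773; sums 250 to 522 and 374 to 703 CPM) or 6 tested lineage genes removed by the sort was called. None of 19 endothelial genes was called (median -0.00857; sums 488 to 791 and 495 to 775 CPM). The most restricted endothelial genes were near 0, with Cdh5, VE-cadherin, at 1.15 ± 0.753 and 0.563 ± 0.924 CPM and Kdr, the VEGF receptor, at 1.61 ± 0.903 and 1.56 ± 0.713 CPM (SD, n = 5 each) in EC_KO and Spred1_wt. Against HSC_wt, 5.24% of all tested genes were called higher and 6.02% lower. There, 4 of 15 macrophage and monocyte genes (median 1.81) and 1 of 14 erythroid genes (median 1.56) were called higher. Called lower were 2 of 12 neutrophil genes (median -0.313) and 1 of 19 endothelial genes (median 0.262). The plasma cell list had no call but a median of 0.445. The signs of the neutrophil, plasma cell and endothelial medians therefore turned with the control. An unadjusted p under 0.05 was found for 3360 of all 13379 tested genes. The erythroid list had 1 such gene, the macrophage list 1, the neutrophil list 1, the plasma cell list 3, the lineage list 0 and the endothelial list 3. DESeq2 called Hbb-b2, Chil3, Derl3 and Pecam1 among these lists. Egfl7, an endothelial secreted protein that hosts a microRNA and is also expressed in LSK cells, read 47.1, 57.0, 54.7, 79.3 and 73.3 CPM against 61.3, 64.4, 63.1, 26.6 and 38.8 CPM and was not called (log2 difference 0.29, SE 0.202, adjusted p = 0.380).

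Of 36 ribosomal protein genes, 16 were called higher and 1, Rplp0, lower, against 3.49% of all genes called higher and 7.51% among the shortest transcripts. Of the 36, 34 were positive, with a median of 0.233. Rps20, a protein of the small ribosomal subunit, rose by 0.41 (SE 0.0955, adjusted p = 0.00973), and Rpl7, of the large subunit, by 0.34 (SE 0.0798, adjusted p = 0.00908), from 1176 ± 101 to 1492 ± 195 CPM (SD, n = 5 each). Both calls were lost in the fit of EC_KO and Spred1_wt alone. All 21 subunits of oxidative phosphorylation were positive (median 0.206), and 4 were called higher, while the summed levels of the groups overlapped. Ndufb3, of complex I, read 47.3, 47.1, 61.8, 50.5 and 41.9 CPM against 31.5, 32.9, 38.0, 38.3 and 31.6 CPM and rose by 0.53 (SE 0.103, adjusted p = 0.00239). All 16 S phase genes were positive (median 0.207), with Tyms, thymidylate synthase, at 0.28 (SE 0.0728, adjusted p = 0.0197) and Mcm6, of the replicative helicase, at 0.25 (SE 0.0693, adjusted p = 0.0243) called higher. Both lost their calls in leave-one-out fits, 4 and 5 of 10, with adjusted p up to 0.0836 without EC_KO replicate 3 and 0.112 without Spred1_wt replicate 5. Of 16 replication-dependent histone genes 15 were positive (median 0.55) and 2 were called, Hist1h1d (log2 difference 0.98, SE 0.253, adjusted p = 0.0174) and Hist1h4i (0.47, SE 0.132, adjusted p = 0.0284), neither of which was called against HSC_wt (log2 differences -0.04 and 0.33). Of 20 G2 and mitosis genes 1 was called higher, Cdk1, the mitotic kinase (log2 difference 0.35, SE 0.103, adjusted p = 0.0368), with the call lost in 7 of 10 leave-one-out fits.

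Short genes as a whole were higher in EC_KO and long genes lower. In the bin of shortest transcripts among 5 equal bins of tested genes, under 1.73 kb, 201 were called higher and 41 lower, and the median log2 difference was 0.145. In the bin of longest transcripts, above 5.67 kb, 25 were called higher and 290 lower, and the median was -0.105. The median in the bin of shortest transcripts ran from 0.0451 to 0.213 over EC_KO libraries and from -0.0548 to 0.0875 over Spred1_wt libraries. Ribosomal, respiratory and histone genes have median lengths of 0.942, 0.759 and 0.502 kb, and PI3K pathway genes 6.39 kb. After correction for gene length, 275 of all 13379 tested genes were called higher and 401 lower. Of 36 ribosomal genes 3 were then called higher and 1 lower (median 0.0919). Of 21 respiratory genes 2 were called higher (median 0.0859), and none of 16 histone genes was called. The S phase list had 2 called higher (median 0.186). The immediate early list then had 3 lower (median -0.836) and the NF-κB list 2 (median -0.492). Of the 1065 calls, 562 (52.8%) were also made after the correction, which called 676 genes.

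Of 19 tested genes of the PI3K, AKT and mTOR pathway, which couples receptors to growth, 15 were negative and 4 positive, with a median of -0.155. Among the 19, 4 were called lower and none higher, against 4.47% of all genes and 10.8% of those with the longest transcripts called lower. They were Mtor, the growth kinase itself, at -0.27 (SE 0.0616, adjusted p = 0.00746), Tsc2, its inhibitor, at -0.24 (SE 0.0593, adjusted p = 0.0141), Foxo3, a transcription factor that AKT keeps out of the nucleus, at -0.42 (SE 0.118, adjusted p = 0.0275), and Pik3cd, a catalytic subunit of PI3K, at -0.28 (SE 0.0863, adjusted p = 0.0479). After length correction Foxo3 alone of these was called (adjusted p = 0.0292). The calls of Tsc2, Foxo3 and Pik3cd were lost in 1, 4 and 8 of 10 leave-one-out fits, among them the fit without EC_KO replicate 3 (adjusted p = 0.0560, 0.102 and 0.145). The 11 genes for microRNA processing and export together with Egfl7 had a median log2 difference of 0.00274, with 6 positive and 5 negative. Their median length was 5.66 kb, at the edge of the bin of longest transcripts. Of these 11, 3 were called lower, against 4.47% of all genes and 10.8% of those with the longest transcripts. Ago2, the slicing Argonaute, read 174, 200.1, 138, 124 and 125 CPM against 190.5, 222, 299, 244 and 285 CPM and fell by 0.70 (SE 0.157, adjusted p = 0.00699), also against global_KO (-0.59, SE 0.151, adjusted p = 0.0156). Ago3 fell by 0.50 (SE 0.149, adjusted p = 0.0401) and Dicer1, which cuts precursors into mature microRNAs, by 0.23 (SE 0.0702, adjusted p = 0.0470), and neither was called after length correction (adjusted p = 0.0813 and 0.954). Each of these last calls was lost in 6 of 10 leave-one-out fits.

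Interferon-stimulated genes gave 1 call of 26, a share near the 4.47% of all genes called lower, with a median of -0.211 against Spred1_wt and 0.247 against HSC_wt. It was Oasl2, a 2'-5' oligoadenylate synthetase-like protein, at 3.39, 3.58, 6.62, 13.1 and 18 CPM in EC_KO against 48.7, 48.0, 28.3, 27.3 and 28.3 CPM in Spred1_wt, a fall of 2.02 (SE 0.440, adjusted p = 0.00665). The remaining 25 were not called, and 20 of the 26 were negative against Spred1_wt. Ffar2, a receptor for short-chain fatty acids outside these lists, read 12.3, 29.7, 14.4, 15.4 and 10.7 CPM against 41.3 to 84.5 CPM and fell by 1.79 (SE 0.245, adjusted p = 8.77e-05). Of 18 p53 targets 1 was called, Cdkn1a, the cell cycle inhibitor p21, at -0.85 (SE 0.255, adjusted p = 0.0412), with the call lost in 7 of 10 leave-one-out fits and against HSC_wt (adjusted p = 0.151). No gene was called among 12 STAT5 targets, 15 BCL2 family genes, 16 integrated stress response genes, 16 endoplasmic reticulum chaperones, 12 heat shock genes, 20 glycolysis and hypoxia genes, 14 MHC class I and 10 MHC class II genes, or 12 surface markers of CML stem cells by edgeR. Of all 13379 tested genes, 3360 had an unadjusted p under 0.05. The lists just named had 3, 3, 4, 0, 2, 4, 1, 0 and 1 such genes in that order. DESeq2 called Socs2, Ddit3, Sesn2, Ppp1r15a, Slc2a3 and Pdk1 among these lists. Single calls came from 22 lineage transcription factors (Runx1, a master factor of blood formation, at -0.27, SE 0.0832, adjusted p = 0.0447), 18 cholesterol synthesis genes (Sqle, squalene epoxidase, at 0.33, SE 0.0949, adjusted p = 0.0327) and 15 megakaryocyte and platelet markers (Plek, pleckstrin, at -0.41, SE 0.124, adjusted p = 0.0428). Runx1, Sqle and Plek lost their calls in 6, 7 and 7 of 10 leave-one-out fits and against HSC_wt. Like the 1 call among p53 targets, these are shares near those of all tested genes, 3.49% called higher and 4.47% called lower.

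EC_KO and global_KO differed at 1160 genes (8.67%), whereas global_KO differed from Spred1_wt at 10 (0.0747%) and HSC_wt from Spred1_wt at 4 (0.0299%). The same EC_KO libraries enter both of its comparisons, so these are not independent of each other. For Ncf4 the difference from global_KO was 1.09 (SE 0.0801, adjusted p = 1.75e-09), for Rida 1.25 (SE 0.0993, adjusted p = 5.12e-09), for Polr2k -1.68 (SE 0.103, adjusted p = 5.63e-11) and for Hmgn2 -0.99 (SE 0.0646, adjusted p = 1.74e-10). Rplp0 differed by -0.97 (SE 0.0905, adjusted p = 1.23e-07). Ccnd1 had a mean of 87.8 CPM in global_KO and 63.8 CPM in EC_KO, a difference of -0.46 that was not called (SE 0.168, adjusted p = 0.0857). EC_KO libraries cannot be told apart from anything else that these 5 mice and no others in the series share, such as their breeding line, since no control of that line was analysed here.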

How the data were processed

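RNA sequencing of 26 libraries of sorted LSK cells was deposited as 1 table of raw read counts per gene. Reads were processed by the authors with bcl2fastq 2.18.0.12, STAR 2.6.0 and HTSeq 0.6.0 on mm10, with edgeR 3.28.1 also listed, per the submitters' processing notes; the roles of the tools beyond their names, the annotation and the use of strand are not given in the sources used here. Starting from the deposited counts, genes were filtered with filterByExpr (minimum count 10), which left 13379 of 24091, scaled by TMM and fitted with edgeR 4.0.16 (R 4.3.3) as 5 group means over 26 libraries, with 21 residual degrees of freedom, and tested by the quasi-likelihood F-test with Benjamini-Hochberg adjustment at 0.05. Standard errors are the log2 difference divided by the square root of F. The biological coefficient of variation was 0.205. No columns were identical. DESeq2 1.42.0, limma 3.58.1 (voom), other scalings and filters, sex, control groups, left-out libraries, and corrections for gene length, GC content, mast cell and immediate early transcripts were tried as alternatives; the last 4 were chosen after seeing the data. Counting intervals are exact binomial at 95% and cover counting error only. Labels give no replicate numbers, so replicates are numbered in accession order. Figures were drawn with matplotlib.

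The members and the 46 gene lists were chosen with earlier results of these data known. Named genes are Spred1, Egfl7 and Ccnd1, the 15 largest rises and 15 largest falls among called genes of at least 5 CPM, up to 4 called members of each list (or its 3 of smallest p), and 4 genes of each group of neighbouring calls. Some genes are not reported here. Of 81 genes described in full, 14 are not covered by this rule; they were picked with their values already seen. The RefSeq tables gave promoter windows for 10320 of the 13379 tested genes.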

Additional observations from a re-analysis of the deposited data

Results flagged for a closer look

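In 6 of 162 groups of 5 libraries examined for the 81 genes described, 1 library stood farther from the others than Dixon's 95% critical value of 0.71 allows, on log2(CPM + 0.1); chance flags about 1 in 20 such groups. Pkig read 31.2 CPM in Spred1_wt replicate 3 against 21.4 to 23 CPM in the other 4. Kcnip3 read 1.41 CPM in Spred1_wt replicate 1 against 8.33 to 15.1 CPM in the others, a level nearer to EC_KO, HSC_wt and global_KO than to its own group. Mcpt4 read 485 CPM in Spred1_wt replicate 3 against 189 to 244 CPM, in the library with the highest summed mast cell level. Pik3cd read 257 CPM in Spred1_wt replicate 1 against 299.96 to 316 CPM. Notch2 read 246 CPM in EC_KO replicate 5 against 186 to 197 CPM, above 3 of the 5 Spred1_wt libraries. Afp read 3.54 CPM in EC_KO replicate 4 against 4.80 to 5.25 CPM in the others, and stayed above all 5 Spred1_wt libraries.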

How the results depend on the processing

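No paired analysis was possible because the labels give the groups no replicate numbers. Where a count or call changed, the cause was not tested. Against the 1065 calls as reported (467 higher, 598 lower), the total was 333 (70 higher, 263 lower) in a fit of both groups alone, 1824 (984 higher) with limma voom, 636 (262 and 374) with sex as a covariate, 2052 (1068 and 984) against the mean of both wild types, 12 (2 and 10) against a log2 threshold of 1, 676 (275 higher) with gene length correction, 683 (245 higher) with gene length and GC correction, 2653 (1337 and 1316) with the mast cell covariate and 384 (130 and 254) with the immediate early covariate. DESeq2 called 942 genes lower, and 701 genes were higher against HSC_wt. Leaving out 1 library gave totals from 483 to 1880, with 169 to 902 higher and 305 to 978 lower.

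Called list members numbered 62 as reported. They were 22 in the fit of both groups alone, 104 with voom, 35 with sex, 95 against HSC_wt, 116 against both wild types, 2 at the log2 threshold of 1, 34 with length correction, 37 with length and GC correction, 168 with the mast cell covariate, 18 with the immediate early covariate and 20 to 99 with 1 library left out. Groups of neighbouring calls numbered 103 as reported and 33, 1 and 32 in the fit of both groups alone, at the log2 threshold and with the immediate early covariate, and 52 to 106 with 1 library left out. Named genes that differed from global_KO numbered 307 as reported, 10 at the log2 threshold, 194 with length correction, 174 with length and GC correction, 169 with the immediate early covariate and 205 to 357 with 1 library left out.

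Spred1 stayed lower in each alternative run, from -0.79 to -0.59 with 1 library left out, and was not called at the log2 threshold of 1 (-0.70, adjusted p = 1) or with the immediate early covariate (-0.54, adjusted p = 0.0607). Signs turned for Hmga2 (-0.15) and Hist1h1d (-0.042) against HSC_wt and for Egfl7 (-0.072) and Cpa3 (0.27) with the mast cell covariate. RLE scaling (1062 calls), upper-quartile scaling (1177) and filters on low counts (855 and 1082) changed totals by less than 1.5 times. Depth limits genes under about 1 CPM, such as Mir674, to a few reads per library.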

Other observations

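Some genes outside the groups above differed by 2-fold or more from both wild-type groups; those given here were picked with their values already seen. Tsc22d1, a leucine zipper protein induced by TGF-β and glucocorticoids, read 73.1, 55.8, 72.2, 30.3 and 96.8 CPM in EC_KO and 116 to 166 CPM in Spred1_wt, and on the log2 scale fell by 1.10 (SE 0.218, edgeR adjusted p = 0.00286). Hnf4a, a nuclear receptor best known from liver, fell by 1.25 (SE 0.227, edgeR adjusted p = 0.00141), from 31.7 ± 9.34 to 13.4 ± 3.66 CPM (SD, n = 5 each). Slc18a2, the vesicular monoamine transporter used by mast cells and neurons, read 178, 164, 51.1, 72.8 and 95.1 CPM against 162 to 333 CPM and fell by 1.16 (SE 0.328, edgeR adjusted p = 0.0319), with the call lost in 5 of 10 leave-one-out fits (adjusted p up to 0.0996, without EC_KO replicate 3). Its lowest libraries, EC_KO replicates 3, 4 and 5, are those with the lowest summed mast cell markers. With the mast cell markers as a covariate the difference was -0.47 (edgeR adjusted p = 0.153). Kif21a, a kinesin motor, rose by 1.30 (SE 0.275, edgeR adjusted p = 0.00482), and Afp, alpha-fetoprotein, rose by 1.19 (SE 0.210, edgeR adjusted p = 0.000985), from 2.07 ± 0.577 to 4.76 ± 0.704 CPM (SD, n = 5 each).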
